A study of Mus musculus with 9 samples.

Results

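The centromere and kinetochore genes are the genes whose products build the attachment site of the chromosome for spindle microtubules. They were taken by symbol from the protein-coding genes of the mouse annotation. The rule uses no peak, but it was chosen with earlier results of these data known. The set comprised every gene named *Cenp* plus a single letter and 21 further genes of the kinetochore, the chromosomal passenger complex and the shugoshins. There were 38 members, 17 of them *Cenp* genes, among 22367 protein-coding genes, and they lay on 17 chromosomes. BAP1 binding at these genes was read from 1 list of 13164 BAP1 binding sites (peaks), each 200 bp wide, mapped by ChIP-Seq in Ba/F3 cells, a mouse line of B cell precursors that grows in the presence of IL-3. BAP1 is a deubiquitinase that removes ubiquitin from histone H2A.

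The list rested on 2 immunoprecipitated samples of the 9 in the series. One was wild type (WT) Ba/F3 chromatin precipitated with an anti-BAP1 antibody. The other was chromatin of BAP1-FLAGx3 cells, Ba/F3 cells under puromycin selection that stably express murine BAP1 with a triple FLAG tag, precipitated with an anti-FLAG antibody. Both lines were grown with WEHI conditioned medium as the source of IL-3, and input DNA of the same cells served as the control. Each immunoprecipitation was sequenced once, and 1 set of positions stands for both, with no score and no column per sample, so that no spread between samples can be given. The promoter of the tagged *Bap1* transgene, and whether the tagged line was a clone, are not given in the sources used here. All counts below therefore describe this list, and no test over samples was possible.

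The kinetochore assembles in layers. At its base, nucleosomes that hold the histone variant CENP-A recruit a constitutive network of CENP proteins. In mitosis the network recruits the KNL1, MIS12 and NDC80 complexes, of which NDC80 holds the microtubule, while the chromosomal passenger complex corrects faulty attachments and shugoshins protect the cohesion of sister centromeres. Many of these genes are transcribed mainly in G2 and mitosis. Promoters of such genes are known for the cell cycle genes homology region (CHR), a short element bound by the MuvB core of the DREAM complex, and for CCAAT boxes, which are bound by NF-Y.

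BAP1 peaks were gene-proximal, with the middle of the peak within 1 kb of an annotated transcription start site (TSS) of the gene, at 36 of the 38 members. This was 94.7% of them (95% Wilson interval 82.7 to 98.5%, which covers counting error only), beside 39.6% of all protein-coding genes. All 21 listed members had a peak, and so did 15 of the 17 *Cenp* genes. The members without one were *Cenpb* and *Cenpv*. Among the bound members the nearest peak lay between 6 bp (*Cenpi*) and 396 bp (*Cenpq*) from an own TSS, with a median of 52.5 bp. The member just inside the limit of 1 kb was thus *Cenpq* at 396 bp, and the one just outside was *Cenpb* at 6809 bp, so no member lay near the limit.

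The sequences of 7 bound promoters are shown because they hold the CHR or CCAAT boxes that recur among the peaks of the members. All are from mm9 (NCBIM37) and are written 5′ to 3′ on the strand of the gene, in lower case, with CHR and CCAAT boxes in capitals. A CCAAT box on the opposite strand reads ATTGG and a CHR on the opposite strand reads TTCAAA. Each is the peak itself, ended at most 30 bases into the transcript. The stretch of *Cenpm* is chr15:82075148-82075194 (minus strand), that of *Spc25* chr2:69044222-69044404 (minus), that of *Cenpw* chr10:29920317-29920504 (minus), that of *Cenpa* chr5:30969064-30969179 (plus), that of *Cenpf* chr1:191511992-191512191 (minus), that of *Zwint* chr10:72117442-72117622 (plus) and that of *Ska2* chr11:86922527-86922726 (plus).
Cenpm: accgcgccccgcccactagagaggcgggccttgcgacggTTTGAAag
Spc25: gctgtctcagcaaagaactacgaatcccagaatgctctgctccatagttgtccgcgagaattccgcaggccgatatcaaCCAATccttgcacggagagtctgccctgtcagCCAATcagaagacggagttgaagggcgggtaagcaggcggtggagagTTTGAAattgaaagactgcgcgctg
Cenpw: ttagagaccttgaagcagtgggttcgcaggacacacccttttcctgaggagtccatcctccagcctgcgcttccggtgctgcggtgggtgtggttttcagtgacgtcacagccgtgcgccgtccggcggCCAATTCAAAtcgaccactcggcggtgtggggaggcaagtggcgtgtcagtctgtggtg
Cenpa: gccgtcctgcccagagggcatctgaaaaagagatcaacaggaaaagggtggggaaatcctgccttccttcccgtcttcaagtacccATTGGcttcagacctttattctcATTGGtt
Cenpf: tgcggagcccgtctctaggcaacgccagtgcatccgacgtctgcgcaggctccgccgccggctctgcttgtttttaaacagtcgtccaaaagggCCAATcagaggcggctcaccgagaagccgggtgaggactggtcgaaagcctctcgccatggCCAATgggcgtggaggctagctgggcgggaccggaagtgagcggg
Zwint: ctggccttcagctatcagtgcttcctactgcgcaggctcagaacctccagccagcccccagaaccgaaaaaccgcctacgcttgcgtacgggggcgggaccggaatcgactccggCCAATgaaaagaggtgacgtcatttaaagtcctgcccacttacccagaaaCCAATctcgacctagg
Ska2: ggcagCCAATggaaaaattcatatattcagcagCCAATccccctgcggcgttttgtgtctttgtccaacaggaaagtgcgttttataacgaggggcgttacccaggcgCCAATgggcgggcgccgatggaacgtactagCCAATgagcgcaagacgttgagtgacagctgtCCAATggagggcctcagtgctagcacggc

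The first 3 hold a CHR. In *Spc25* it stands downstream of a pair of CCAAT boxes, and in *Cenpw* the opposite-strand CHR shares a base with the CCAAT box before it. The other 4 hold CCAAT boxes without a CHR, from 2 in *Cenpa*, *Cenpf* and *Zwint* to 5 in *Ska2*.

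At the base of the kinetochore, *Cenpa*, which encodes the centromeric histone variant, had a peak at chr5:30969064-30969263, its middle 14 bp downstream of the TSS. *Cenpb*, which encodes a protein that binds a short motif in centromeric satellite DNA, had none. Of this pair only the histone gene was thus bound.

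The members of the constitutive network that carry a *Cenp* symbol had a peak at 11 of 11 genes. *Cenph*, *Cenpi*, *Cenpk* and *Cenpm* encode the subunits of one subcomplex of the network. The *Cenph* peak, chr13:101545765-101545964, was centred 11 bp upstream of the TSS. The *Cenpi* peak, chrX:130842529-130842728, was centred 6 bp downstream, the closest of all members. The *Cenpk* peak, chr13:105018909-105019108, was centred 26 bp upstream. *Cenpm* had a pair of overlapping peaks centred inside the gene, of which the first also covered the TSS. The first, chr15:82074995-82075194, was centred 82 bp downstream and held 57 coding bases. The second, chr15:82074830-82075029, was centred 247 bp downstream and held no exonic base.

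*Cenpl* and *Cenpn* encode partners that dock the network on CENP-A nucleosomes. The peak at *Cenpl*, chr1:163000908-163001107, was centred 15 bp upstream of an internal TSS, and all 200 of its bases lay in exons of longer transcripts. The peak at *Cenpn*, chr8:119445841-119446040, was centred 301 bp downstream and lay in no exon of the gene. *Cenpo*, *Cenpp* and *Cenpq* encode subunits of another subcomplex, and *Cenpp* and *Cenpq* had the most distant peaks among the bound members. *Cenpo* was bound at chr12:4234227-4234426, centred 33 bp upstream. *Cenpp* was bound by overlapping peaks at chr13:49748337-49748536 and chr13:49748451-49748650, centred 313 and 427 bp upstream. *Cenpq* was bound at chr17:41071500-41071699, centred 396 bp downstream within exon sequence, none of it coding. *Cenpt* and *Cenpw* encode histone-fold proteins that contact DNA and carry NDC80 complexes. The *Cenpt* peak, chr8:108375786-108375985, was centred 22 bp downstream and held 98 coding bases. The *Cenpw* peak, chr10:29920305-29920504, was centred 59 bp upstream.

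All 4 genes of the NDC80 complex had a peak, each centred upstream of the TSS. *Ndc80* and *Nuf2* encode the arm that meets the microtubule. The peak of *Ndc80* was chr17:71876127-71876326, 30 bp upstream, and that of *Nuf2* was chr1:171461605-171461804, 110 bp upstream. *Spc24* and *Spc25* encode the other end of the rod, which docks on the inner kinetochore. Their peaks were chr9:21564681-21564880 and chr2:69044205-69044404, 48 and 54 bp upstream. These distances differ by less than the 200 bp width of a peak.

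The MIS12 complex joins NDC80 to the network, and all 4 of its genes were bound. *Mis12* had 2 peaks that do not overlap, each next to a different TSS of the gene. One, chr11:70833279-70833478, was centred 14 bp upstream of a TSS inside the gene. The other, chr11:70832778-70832977, was centred 235 bp upstream of the first TSS. *Dsn1* was bound at chr2:156832721-156832920, 10 bp upstream of a TSS, and *Nsl1* at chr1:192886744-192886943, 47 bp upstream. *Pmf1*, the fourth subunit, was bound at chr3:88214193-88214392, 55 bp upstream.

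*Casc5* encodes KNL1, the scaffold for the spindle checkpoint, and *Zwint* encodes its partner. The peak of *Casc5*, chr2:118872536-118872735, was centred 219 bp upstream, and that of *Zwint*, chr10:72117442-72117641, was centred 51 bp upstream. *Zw10* and *Zwilch* encode subunits of the RZZ complex, which recruits dynein to the kinetochore. *Zw10* was bound at chr9:48863540-48863739, 97 bp upstream, and *Zwilch* at chr9:64021007-64021206, 196 bp upstream.

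The SKA complex couples kinetochores to moving microtubule ends, and *Knstrn* encodes a small kinetochore protein that acts with it at the spindle. All 4 genes had a peak. *Ska1* was bound at chr18:74367411-74367610, 39 bp upstream. *Ska2* (annotated as *Fam33a*) was bound at chr11:86922527-86922726, 109 bp upstream. *Ska3* (annotated as *F630043A04Rik*) was bound at chr14:58444935-58445134, 35 bp upstream. Of these 4 peaks, only that of *Knstrn* lay wholly in exons. It was chr2:118639808-118640007 (the gene is annotated as *D2Ertd750e*), centred 60 bp upstream of an internal TSS, with 171 coding bases.

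In the fibrous corona, *Cenpe* encodes a kinesin motor that moves chromosomes to the spindle equator, and *Cenpf* a large coiled-coil protein. The peak of *Cenpe* was chr3:134875406-134875605, 21 bp upstream, and that of *Cenpf* was chr1:191511992-191512191, 127 bp upstream. *Incenp*, *Birc5* and *Cdca8* encode the passenger proteins that place the Aurora B kinase. *Incenp* had overlapping peaks at chr19:9974003-9974202 and chr19:9974114-9974313, 80 and 191 bp upstream. *Birc5*, which encodes survivin, was bound at chr11:117710431-117710630, 34 bp upstream. *Cdca8*, which encodes borealin, was bound at chr4:124614183-124614382, 122 bp upstream of an internal TSS, with no base of the peak upstream of the whole gene.

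The shugoshin genes *Sgol1* and *Sgol2* guard centromeric cohesin. They were bound at chr17:53828654-53828853, 96 bp upstream, and at chr1:58052700-58052899, 15 bp upstream. *Cenpj*, which carries a centromere name but encodes a protein of centriole duplication, was bound at chr14:57190654-57190853, 71 bp upstream. *Cenpv*, whose product is known for its place on spindle midzone microtubules and centromeric heterochromatin, was not bound.

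**Figure D1:**
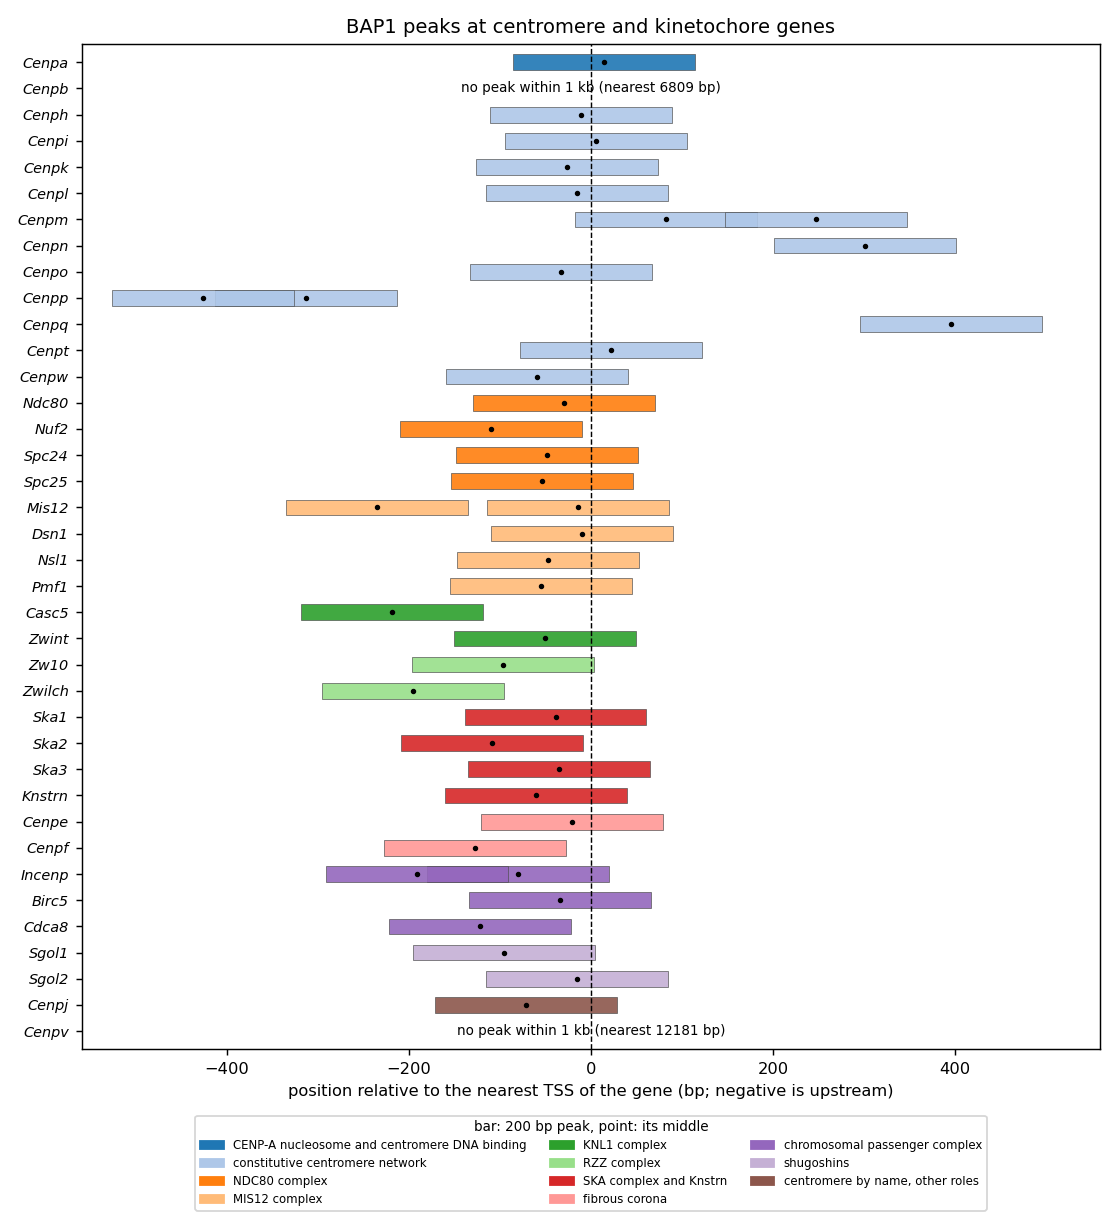
Positions of the BAP1 peaks (200 bp bars, middle as a point) along the x axis in bp relative to the nearest TSS of each gene, with negative values upstream, and 1 gene per row in the color of its subcomplex. The bars of 36 genes lie close to the dashed line at the TSS, those of *Cenpp* and *Cenpq* are the farthest from it, and *Cenpb* and *Cenpv* have no bar. The peaks of *Mis12* are drawn against different TSSs of the gene.

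The 36 bound members had 40 peaks. A single peak was found at 32 members, and 2 peaks at *Cenpm*, *Cenpp*, *Mis12* and *Incenp*. Members with more than 1 peak were 11.1% of the bound ones, beside 25.5% of all bound protein-coding genes. The low share was not found across the machinery, as 11 of the 24 bound further genes described below had more than 1 peak. No member had a further peak inside the gene beyond 1 kb, but the share of all protein-coding genes with such a peak was not counted. The middle of 33 peaks (82.5%) lay upstream of the nearest own TSS and that of 7 downstream, and 27 (67.5%) lay within 100 bp of it. Measured to the nearest TSS of any protein-coding gene, as for the whole list, 34 of the 40 (85%) were upstream, beside 70.0% of all 9805 peaks within 1 kb of a protein-coding TSS. On that measure 30 of the 40 (75%) lay within 100 bp, beside 71.5% of all such peaks. The median position of the peaks of members relative to the nearest own TSS was -47.5 bp (quartiles -100 and -14.8 bp, 95% interval of the median -71 to -26 bp), and relative to the nearest protein-coding TSS it was -49.5 bp. That of all such peaks was -29 bp on the latter measure (quartiles -76 and 8 bp, 95% interval -30 to -28 bp). Of the 40 peaks, 27 covered an annotated TSS of the member, 11 held no exonic base and 8 held coding bases. Exonic and coding bases were not counted over all such peaks.

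**Figure D2:**
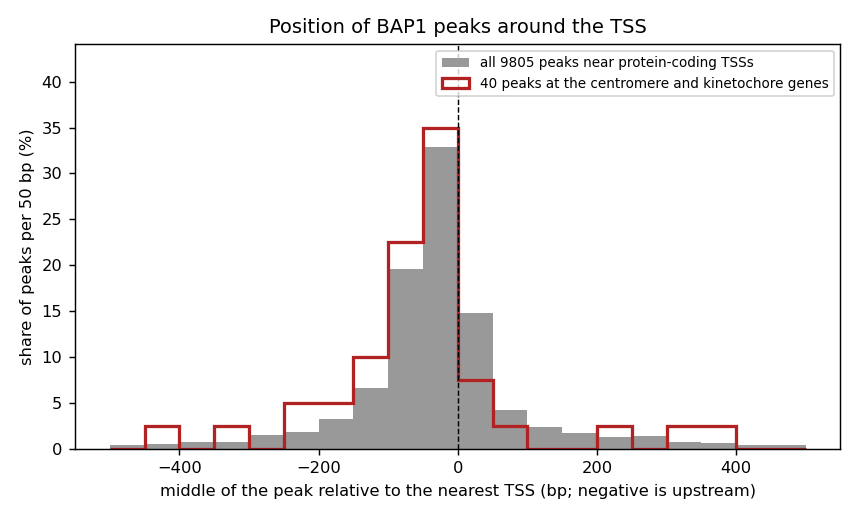
Share of peaks (%) per 50 bp against the position of the middle of the peak relative to the nearest TSS, in bp, for the 40 peaks of members (red line, nearest TSS of the member) and all 9805 peaks near protein-coding TSSs (grey, nearest protein-coding TSS). Both peak just upstream of the TSS, with medians of -47.5 and -29 bp, and the red line rests on only 40 peaks. Positions beyond 500 bp are outside the axis.

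Several members share their promoter with a neighbour. At 11 members (30.6% of the bound ones) a peak also lay within 1 kb of a TSS of another protein-coding gene, beside 25.8% of all bound protein-coding genes. All 11 pairs lay on opposite strands, but strands were not counted over the shared peaks of all bound genes. By the TSSs nearest to the peak, the neighbour started inside the member at *Cenpo* and *Cenpq*, so the 5′ ends overlapped. The other pairs were divergent by these TSSs. At the inner peak of *Mis12* this holds only for an internal TSS, as the *Derl2* start there also lay inside *Mis12*. The distance between the starts ranged from 50 to 595 bp with a median of 267 bp. Of the shared peaks, those of *Cenpp* (with *Nol8*), *Cenpq* (with *Mut*), *Nsl1* (with *Tatdn3*), *Zwilch* (with *Rpl4*) and the upstream one of *Mis12* (with *Derl2*) were nearer to the neighbour than to the member. The *Cenpq* peak, for example, was 56 bp from the start of *Mut*, which encodes a mitochondrial mutase, against 396 bp from that of *Cenpq*. The *Zwilch* peak was 87 bp from the start of the ribosomal protein gene *Rpl4* against 196 bp from that of *Zwilch*. Among the rest, the peaks of *Cenpk* (with *Ppwd1*), *Cenpn* (with *2310061C15Rik*), *Cenpo* (with *2410017P09Rik*), *Ska2* (with *Prr11*) and *Ska3* (with *Mrp63*) were nearer to the member. A further 2 members shared a peak only with a start of a noncoding transcript, *Ndc80* with *Mettl4-ps1* (39 bp between the starts) and *Cdca8* with *9930104L06Rik* (131 bp). For these genes the position alone cannot tell which of the neighbours a peak belongs to. Counting only peaks whose nearest TSS of any gene was that of a member left 30 of the 38 members with a peak. The share of all protein-coding genes under this stricter rule was not counted, so the 30 cannot be set against the 39.6% above.

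The unbound members were looked at in the same way. The nearest peak to *Cenpb* was chr2:131012512-131012711, 6809 bp upstream of its TSS. It lay 73 bp from the start of *Cdc25b*, which encodes a phosphatase that drives entry into mitosis, and 406 bp from that of *Spef1*. The nearest peak to *Cenpv* was chr11:62364844-62365043, 12181 bp upstream and 60 bp from the start of the polyubiquitin gene *Ubb*. Their promoters are shown here from 170 bases before the TSS to 30 bases after it, on the strand of the gene. The capitals mark an E2F motif, and neither stretch held a CHR or a CCAAT box. The *Cenpb* stretch also held an SP/KLF motif (GGGCGG, on the opposite strand), which is not in capitals. The bound promoters shown above were chosen for their boxes. Peaks of other bound members, such as *Nuf2*, *Dsn1*, *Zw10* and *Sgol1*, held neither box. Any link of these motifs to the lack of a peak was not tested. They are chr2:131005774-131005973 (minus strand) for *Cenpb* and chr11:62352734-62352933 (minus strand) for *Cenpv*.
Cenpb: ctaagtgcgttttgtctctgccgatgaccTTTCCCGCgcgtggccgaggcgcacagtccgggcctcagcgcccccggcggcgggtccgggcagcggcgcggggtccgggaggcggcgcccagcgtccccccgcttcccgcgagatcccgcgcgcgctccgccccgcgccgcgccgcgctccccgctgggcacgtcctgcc
Cenpv: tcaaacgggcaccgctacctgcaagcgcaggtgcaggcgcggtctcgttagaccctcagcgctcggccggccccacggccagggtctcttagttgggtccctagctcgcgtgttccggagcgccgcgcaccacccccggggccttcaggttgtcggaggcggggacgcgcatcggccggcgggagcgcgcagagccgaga

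Both unbound promoters were rich in CpG. The CpG ratio, observed over expected, within 500 bp on either side of the TSS was 0.982 at *Cenpb* and 0.911 at *Cenpv*. The members as a whole ranged from 0.623 (*Cenph*) to 1.01 (*Casc5*), with a median of 0.767 (95% interval 0.693 to 0.838, n = 38 promoters). The median was 0.764 over the 8850 protein-coding genes with a peak, 0.296 over the 13517 without one and 0.557 over all of them. The promoters of the members thus lay at the level of bound genes in general, and the unbound members lay in the upper part of the range. Of the 9542 protein-coding genes whose ratio fell in the range of the members, 70.9% had a peak, beside 94.7% of the members.

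**Figure D3:**
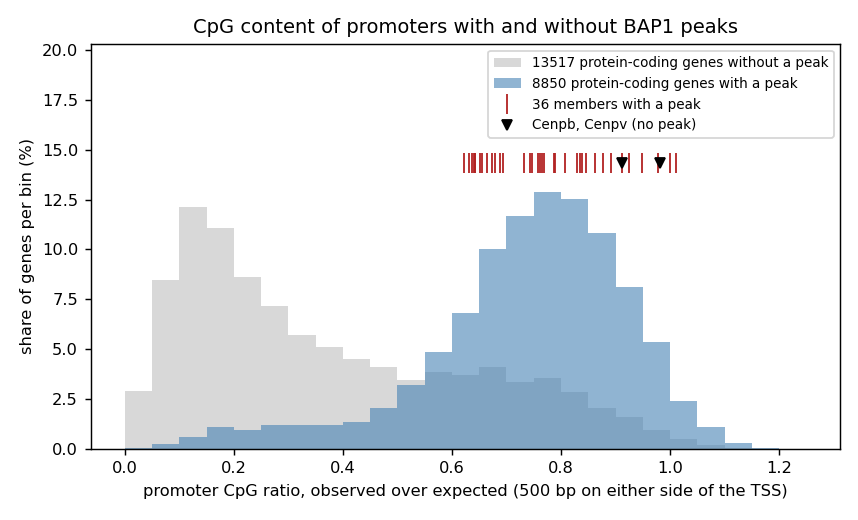
Distribution of the promoter CpG ratio (observed over expected, x axis) as the share of genes (%) in each bin for protein-coding genes with a peak (blue, 8850) and without one (grey, 13517), with the 36 bound members as red ticks and *Cenpb* and *Cenpv* as triangles above. All 38 members lie at 0.623 or higher, inside the blue distribution.

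Each peak sequence was read on both strands for 10 motifs. They were CHR (TTTGAA or TTCGAA), the CCAAT box (CCAAT), E2F (TTTCCCGC, TTTCGCGC, TTTGCCGC or TTTGGCGC), ETS (CCGGAAG), YY1 (AANATGGC), NRF1 (GCATGCGC), ZNF143 (ACTACAA), SP/KLF (GGGCGG), CREB (TGACGTCA) and FOX (GTAAACA). Matches of different motifs may overlap, as the CHR and CCAAT box of *Cenpw* do. A match only describes the letters, and a peak without one says nothing about the factor.

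A CHR was found in 11 of the 40 peaks of members (27.5%, 95% Wilson interval 16.1 to 42.8%), beside 5.41% of all 9805 peaks near protein-coding TSSs. A CCAAT box was found in 21 (52.5%, interval 37.5 to 67.1%), beside 30.0%. For both motifs the interval lay above the value of the whole list. The intervals treat the 40 peaks as separate, although the paired peaks of *Cenpm*, *Cenpp* and *Incenp* overlap and share bases. They also make no allowance for the 10 motifs read. With 1 peak per member, a CHR was found in 10 peaks and a CCAAT box in 18. Both together stood in 5 peaks (12.5%), those of *Cenph*, *Cenpi*, *Cenpw* and *Spc25* and the second one of *Cenpm*, beside 2.13%. At least one of them was found in 27 (67.5%), beside 33.2%. With 2 or more CCAAT boxes there were 11 peaks (27.5%), beside 10.6% of all, a count made after the positions of the boxes had been seen.

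The other motifs differed from the whole list by fewer percentage points than CHR and the CCAAT box. ETS was found in 12 peaks (30.0%, beside 20.5%) and YY1 in 6 (15.0%, beside 9.11%). NRF1 was found in 3 (7.5%, beside 5.86%), CREB in 4 (10.0%, interval 3.96 to 23.1%, beside 3.35%) and FOX in 3 (7.5%, interval 2.58 to 19.9%, beside 2.05%). The intervals of CREB and FOX began just above the level of the whole list, on 4 and 3 peaks. As a multiple of that level, both motifs exceeded the CCAAT box, so the ranking depends on the scale. SP/KLF was found in 23 (57.5%, interval 42.2 to 71.5%, beside 69.1%), the only frequent motif below its level in the whole list. That level lay inside the interval. In 400 bp centred on each peak the shares were 80.0 and 80.3%. In the promoters from 250 bp before to 50 bp after the TSS, 71.1% of the members held it, beside 68.6% of those with a peak. E2F was found in 1 (2.5%, beside 3.2%), the second peak of *Cenpm*, and ZNF143 in 1 (2.5%, beside 2.99%), the peak of *Cenpj*. The peaks of *Dsn1* and *Zw10* held none of the 10.

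**Figure D4:**
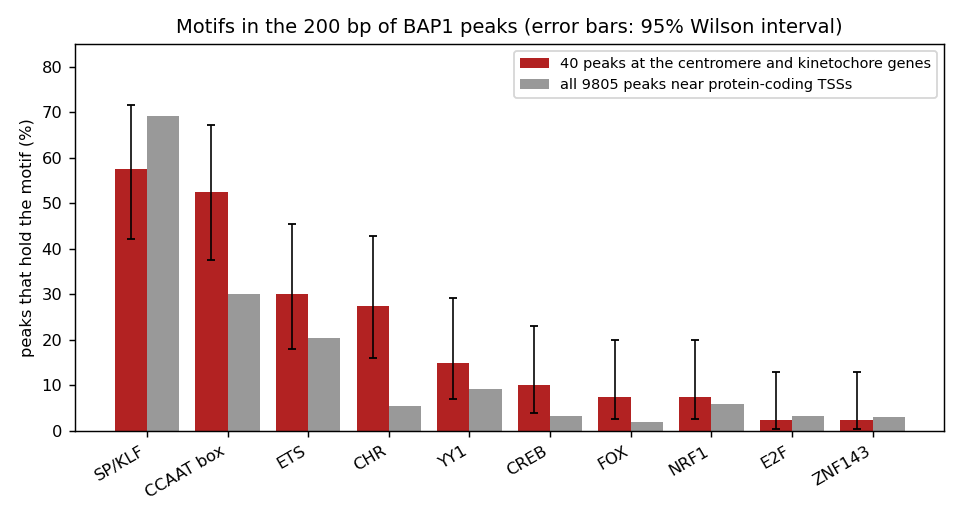
Share of peaks (%) that hold each of the 10 motifs, for the 40 peaks of members (red, with 95% Wilson intervals as error bars) and all 9805 peaks near protein-coding TSSs (grey). For CHR (27.5 against 5.41%) and the CCAAT box (52.5 against 30.0%) the error bar lies clear of the grey bar, and for CREB and FOX it starts just above it.

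The CHRs inside the peaks lay close to the start of the gene. Only the bases of the peaks were searched here, so CHRs farther out were not placed. Position 0 is the TSS, and the first base of the motif in the direction of the gene is given. Of the 12 CHRs, 8 lay within 50 bp of the TSS (66.7%), beside 183 of the 551 in all peaks near protein-coding TSSs (33.2%). The histone-fold gene *Cenpw* had its CHR at -25 bp, *Spc25* at 5 bp, *Ndc80* at 29 bp, *Ska3* at -14 bp and *Birc5* at 50 bp. *Knstrn* held CHRs at -26 and 30 bp. Farther from the TSS were the CHRs of *Cenph* at 75 bp, *Cenpi* at 86 bp and *Zwilch* at -160 bp. *Cenpm* held one in each peak, at 22 and 328 bp, the latter the only one of the form TTCGAA. By subcomplex, CHRs were found in peaks of the constitutive network (*Cenph*, *Cenpi*, *Cenpm*, *Cenpw*), NDC80 (*Ndc80*, *Spc25*), RZZ (*Zwilch*), SKA with *Knstrn* (*Ska3*, *Knstrn*) and the passenger complex (*Birc5*). None was found in the peaks of *Cenpa*, *Cenpj*, the MIS12 and KNL1 complexes, the fibrous corona or the shugoshins.

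CCAAT boxes were more often upstream, 30 of 38 relative to the nearest protein-coding TSS (78.9%, beside 83.0% of those in all peaks near protein-coding TSSs). *Ska2* held the most, with boxes at -204, -176, -101, -70 and -38 bp. The upstream peak of *Mis12* held 4, at -282, -253, -221 and -140 bp. *Ska1* held boxes at -90 and -59 bp, and *Cdca8* at -85 and -51 bp. In *Cenpa*, by contrast, the boxes lay at 0 and 23 bp, at and just after the TSS.

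**Figure D5:**
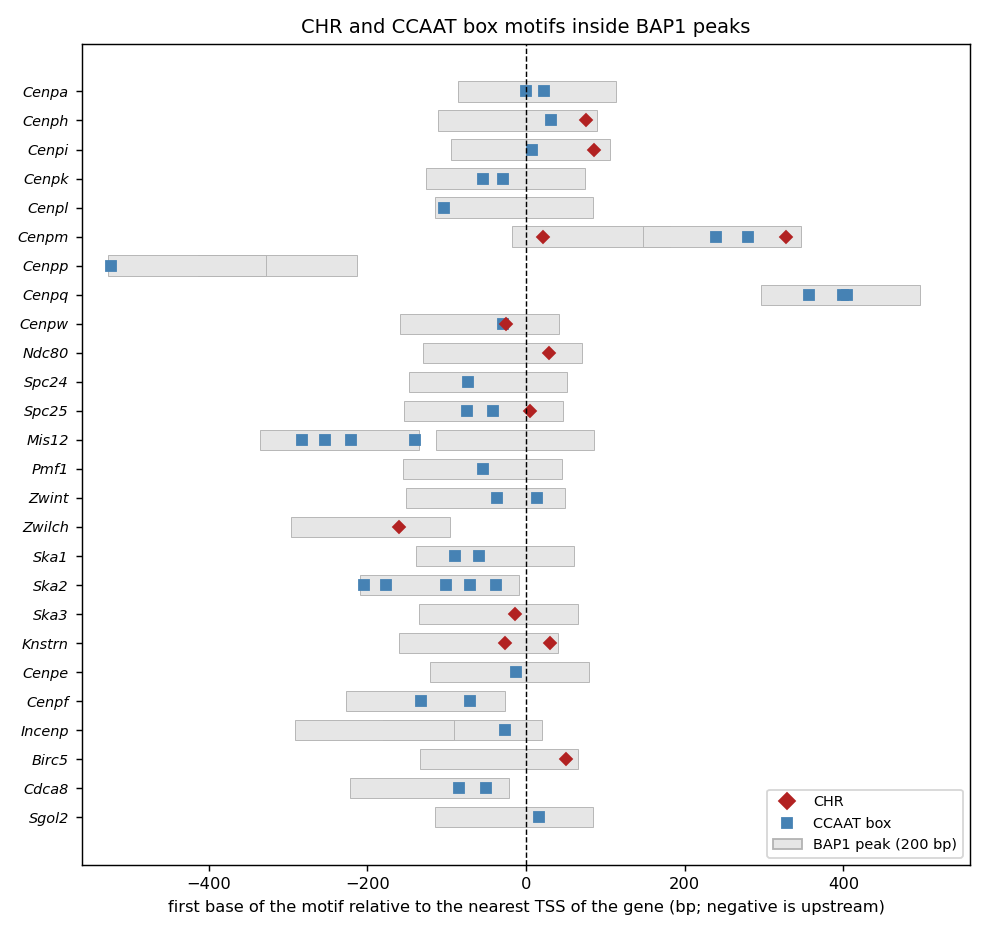
Position of CHR (red diamonds) and CCAAT boxes (blue squares) inside the BAP1 peaks (grey bars, 200 bp), 1 member per row, in bp relative to the nearest TSS of the gene, for the members with at least one of the motifs. Most CHRs lie near the dashed line at the TSS (8 of 12 within 50 bp), while CCAAT boxes lie mostly to its left.

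The count of CHRs depended on the width searched. In 400 bp centred on each peak, 23 of the 40 (57.5%) held one, beside 13.3% of all peaks near protein-coding TSSs. In the promoters of all 38 members, from 250 bp before to 50 bp after the TSS of the longest transcript, 16 (42.1%) held one, beside 17.5% of all protein-coding promoters and 13.5% of those with a peak. For the CCAAT box the shares in 400 bp were 62.5 and 42.0%. In the promoters, 20 members (52.6%) held one, beside 37.6% of all and 40.1% of those with a peak. The difference for the CCAAT box was thus smaller in promoters than in peaks, and no interval was computed for promoters.

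Further genes of the same machinery were read from a list of 27, among them subunits of the network that carry other symbols, the factors that load CENP-A, the mitotic kinases and the spindle checkpoint. A peak was found at 24 of the 27 (88.9%), beside 39.6% of all protein-coding genes. The network subunits under other symbols had a peak at 4 of 5 genes, *Cenpc1*, *Mlf1ip*, *Itgb3bp* and *Stra13*, and *Apitd1* was without. All 4 genes of CENP-A loading were bound, among them *Hjurp*, the CENP-A chaperone, with a peak centred 26 bp upstream. Both genes of RZZ and Spindly (*Kntc1* and *Ccdc99*) had a peak. Of the 9 kinase and checkpoint genes 7 had one, among them *Aurkb*, the kinase of the passenger complex, 15 bp upstream, and *Bub1*, 90 bp upstream. All 7 genes of microtubule attachment had a peak. Those without one were *Apitd1* (nearest peak 26339 bp away), *Bub1b*, which encodes the checkpoint protein BUBR1 (27765 bp), and *Ttk*, which encodes the checkpoint kinase MPS1 (90401 bp). Of the 24 bound ones, 11 had more than 1 peak, compared with 4 of the 36 bound members and 25.5% of all bound protein-coding genes.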

How the data were processed

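The authors sequenced ChIP-Seq libraries of Ba/F3 cells, mapped the reads to mm9 and called BAP1 peaks with MACS against input DNA. The submitters' processing notes name Bowtie 1.0.0 and MACS 1.4.2. The deposited values are positions in bp alone (chromosome, start, end), without a score, count or other measure, from the anti-BAP1 and the anti-FLAG sample together, and 0 columns could not be matched to a sample. The threshold, the rule that joined both samples and the depth are not given in the sources used here, so the 95% Wilson intervals cover counting error only.

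Peaks were placed on GENCODE M1 (NCBIM37), without mitochondrial genes. A gene was bound when the middle of a peak lay within 1 kb of any of its TSSs. Members were matched by symbol or an older symbol from RefSeq (GRCm38.p6, names only), and 3 were found under another symbol. The CpG ratio covered 500 bp before and after the TSS of the longest transcript. Intervals of medians are order-statistic intervals. The named genes are all members, genes that share a promoter peak with them, and the further list; 1 shared pair is counted but not reported here by name. The members and lists were chosen with earlier results of these data known. Distances were tested from random positions to the peaks of the list, and 2000 of 2000 equalled those of bedtools 2.31.1. Motif searches were tested on random sequences of A and G, where 1000 of 1000 planted motifs were found. False matches were not tested. Alternatives were windows of 500 bp and 2 kb, the edge of the peak, 1 TSS per gene, coding transcripts, the nearest TSS, merged peaks, other motif windows and other flanks. Python 3.11.15, pandas 2.3.3 and pysam 0.24.0 were used.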

Additional observations from a re-analysis of the deposited data

How the results depend on the processing

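With windows of 500 bp or 2 kb, the edge of the peak, 1 TSS per gene, coding transcripts or merged peaks, 36 members had a peak, as reported, and 30 when the nearest TSS of any gene had to be that of the member. For that last rule the share of all protein-coding genes was not counted. Of 63 alternative values, 58 stayed within the limits set for a change, 5 moved and 0 changed direction. The median CpG ratio of the members was 0.866 with 250 bp on either side of the TSS, where that of all protein-coding genes was 0.602. Among the motifs, CHR was found in 23 peaks with 400 bp in place of 11, and E2F was found in 3 peaks with 400 bp, in 0 with 1 peak per member and in 3 promoters of members. The promoter window was chosen after seeing the data. With merged peaks the members had 36 in place of 40. No paired analysis was possible because 1 list holds the peaks of both samples and no result comes from a test. The list has no score, so depth and strength of binding could not be weighed, and a stricter threshold was not tried.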
